A study of Mus musculus with 16 samples.

Results

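Aminoacyl-tRNA synthetases are the enzymes that load each tRNA with its amino acid, and their mRNAs were followed here in perfused mouse livers with and without the kinase Gcn2. The 38 genes described were chosen by symbol (a letter followed by ars, with or without a final 1 or 2, plus Eprs, Farsa, Farsb, Tarsl2, Aimp1 and Aimp2) among 18193 genes on the array that had a probe set with a single symbol. They comprised 19 cytosolic synthetase genes, 16 mitochondrial synthetase genes (suffix 2) and 3 others. The 3 others were Tarsl2, a cytosolic paralogue of threonyl-tRNA synthetase, and Aimp1 and Aimp2, scaffold proteins with no charging activity of their own. Each gene was represented by its probe set with the highest mean over all 16 arrays.

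The arrays held RNA from livers of mice lacking Gcn2 in all cells (global Gcn2-/-) and from wild-type littermates, 3 to 6 months old. Livers were perfused in a single pass with medium lacking methionine or with medium holding all amino acids, and RNA was extracted either from the ribosome-rich polysome fractions collected after sedimentation through sucrose or from homogenate supernatant that was not run on a gradient (unfractionated RNA). The 8 groups were knockout polysome RNA without and with methionine, wild-type polysome RNA without and with methionine, knockout unfractionated RNA without and with methionine, and wild-type unfractionated RNA without and with methionine. Each group had 2 arrays, and each array a pool of RNA from 2 livers, so the spread between arrays is that between pools.

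Cells charge tRNAs with separate sets of enzymes in the cytosol and in mitochondria, all of them encoded in the nucleus. Gcn2 binds uncharged tRNA and then phosphorylates the translation initiation factor eIF2, which lowers initiation on most mRNAs while favouring translation of the transcription factor Atf4. Many genes for cytosolic synthetases are known Atf4 targets, together with amino acid transporters and biosynthetic enzymes, so the family lies both upstream of Gcn2, through charging, and downstream of it. Several cytosolic synthetases are held with the Aimp scaffold proteins in a multisynthetase complex.

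Atf4 binds a composite site whose commonly listed core reads TGATGNAA. The stretches of promoter that held this core in the gene family are shown. A match alone shows neither binding of Atf4 nor a link to Gcn2, and binding was not examined. Each is written 5′ to 3′ on the strand of the gene, with the match (here on the opposite strand, so read as its reverse complement) in capitals. Sequences and coordinates are from RefSeq (GRCm38.p6).
Aars (alanyl-tRNA synthetase, chr8:111033710-111033757, plus strand): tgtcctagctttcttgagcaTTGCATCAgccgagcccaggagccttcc
Gars (glycyl-tRNA synthetase, chr6:55037951-55037998, plus strand): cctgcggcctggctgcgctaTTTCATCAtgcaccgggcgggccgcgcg
Tars (threonyl-tRNA synthetase, chr15:11399659-11399693, minus strand): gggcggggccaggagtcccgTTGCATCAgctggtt
The match began 112 bases before the annotated start in Aars, 30 in Gars and 15 in Tars. Promoters were available for 29 of the 38 genes. The core was found on either strand within 250 bases before the start in 3 of 12 cytosolic promoters (25.0%), in 0 of 15 mitochondrial promoters and in 3.45% of all 32851 promoters.

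Signals are linear array intensities as deposited, already scaled to the same trimmed mean in every array, and compare the same gene between arrays only. Changes are differences of log2(signal + 16) from limma fitted to all 16 arrays and to 10916 genes, which leaves out the dimmest 40%. A gene is called where the p-value adjusted over all these genes (Benjamini-Hochberg) is under 0.05. Of the family 37 genes were tested. Mars2, the mitochondrial methionyl-tRNA synthetase, was too dim, with signals of 9.53 to 22.6 in polysome arrays and 1.00 to 33.4 in unfractionated arrays. Replicate arrays correlated at 0.968 to 0.976 over genes. The hepatocyte genes Alb, Apoa1 and Ttr reached at least 13900 in every array, so the defining markers of the labelled tissue were present. Eif2ak4, the gene for Gcn2, had signals of 21.2 to 52.9 in the 8 knockout arrays and 62.9 to 103.5 in the 8 wild-type arrays, without overlap, a log2 difference of -0.84 ± 0.15 (SE, limma, adjusted p = 0.004). Whether its probe set lies within the deleted part was not examined.

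The clearest pattern in the family was between RNA fractions: mRNAs of most cytosolic synthetases made up a smaller share of polysome RNA than of unfractionated RNA, and those of mitochondrial synthetases as a class did not. Of 19 cytosolic genes 13 fell and 1 rose in polysome RNA (8 polysome against 8 unfractionated arrays), with a median log2 difference of -0.43. Of 15 mitochondrial genes 1 fell and 2 rose, with a median of 0.02. Among all genes tested 31.4% were called, 14.8% lower and 16.6% higher, with a median of 0.02. Since every array was scaled to the same mean, such a difference is one of an mRNA's share within each fraction and gives neither the amount of RNA on polysomes nor the number of ribosomes per mRNA.

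**Figure D1:**
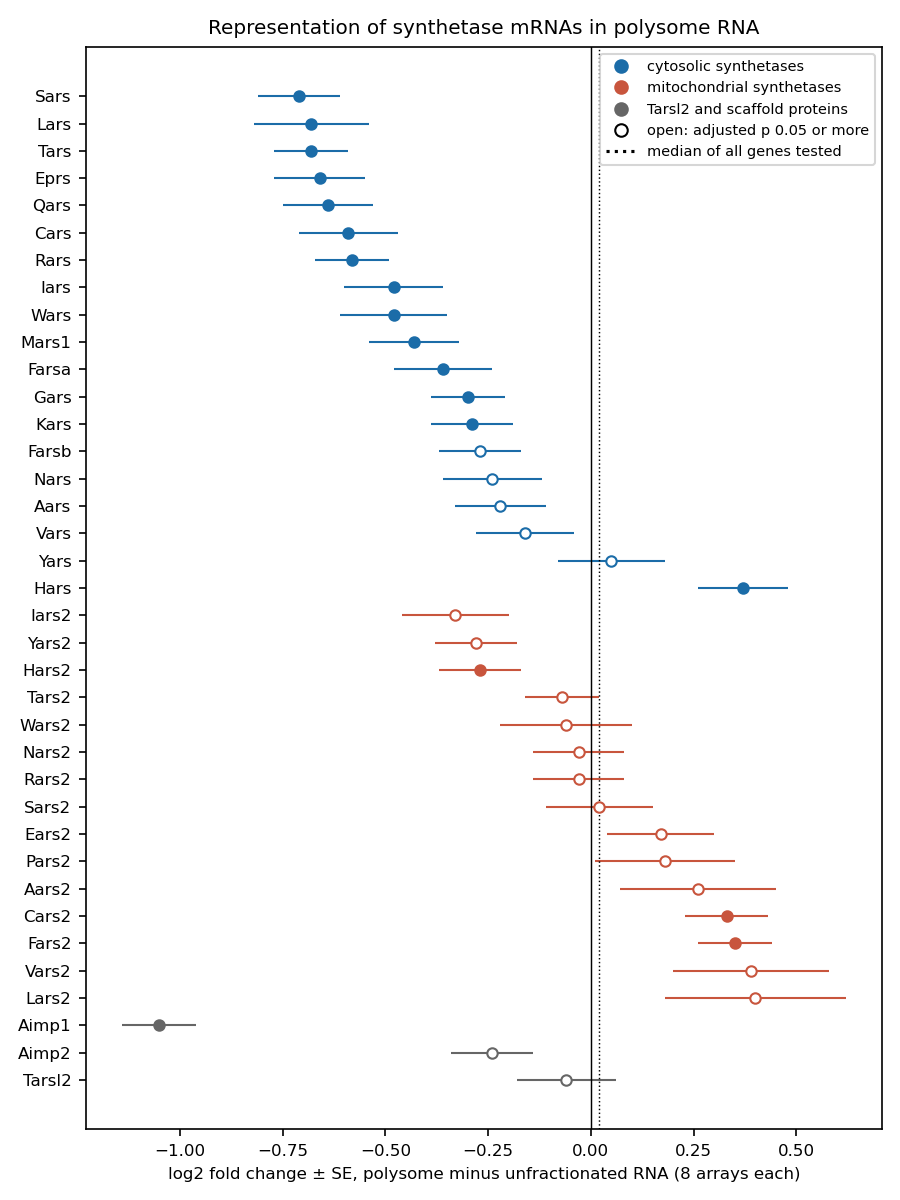
Log2 fold change of polysome over unfractionated RNA for the 37 genes tested (8 arrays each; bars are SE), sorted within each class, with filled points for an adjusted p under 0.05. Cytosolic synthetases run from -0.71 for Sars to 0.37 for Hars with 17 of 19 below 0, mitochondrial ones from -0.33 to 0.40 on both sides of 0, and Aimp1 lies lowest at -1.05.

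Among the multisynthetase complex genes, the scaffold gene Aimp1 showed the largest change of the family. Its signal ranged from 243 to 383 (median 309) in polysome arrays and from 549 to 756 (median 651) in unfractionated arrays, with no overlap. The log2 difference was -1.05 ± 0.09 (SE, limma, adjusted p = 4.8e-07), a polysome level 0.484 times that in unfractionated RNA. Eprs, the bifunctional glutamyl-prolyl-tRNA synthetase, had 555 to 954 (median 688) in polysome arrays and 836 to 1614 (median 1119) in unfractionated arrays, and fell by 0.66 ± 0.11 (adjusted p = 4e-04). Qars, which charges glutamine, had 490 to 930 (median 604) in polysome arrays and 822 to 1125 (median 982) in unfractionated arrays, and fell by 0.64 ± 0.11 (adjusted p = 4e-04). In both genes the highest polysome array lay above the lowest unfractionated array. Rars, which charges arginine, had 475 to 686 (median 624) in polysome arrays and 819 to 1085 (median 895) in unfractionated arrays, with no overlap. It fell by 0.58 ± 0.09 (adjusted p = 1.3e-04).

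The other enzymes of the complex that were measured here also fell, with overlapping arrays. Lars, for leucine, had 272 to 744 (median 359) in polysome arrays and 532 to 811 (median 610) in unfractionated arrays (-0.68 ± 0.14, limma adjusted p = 0.0014). Its highest polysome value, 744, was in the first pool of knockout livers without methionine, whose second pool had 348. Iars, for isoleucine, had 288 to 572 (median 421) in polysome arrays and 486 to 642 (median 578) in unfractionated arrays (-0.48 ± 0.12, adjusted p = 0.007). Mars1, the cytosolic methionyl-tRNA synthetase, which also charges the initiator tRNA, had 585 to 1021 (median 872) in polysome arrays and 984 to 1410 (median 1099) in unfractionated arrays (-0.43 ± 0.11, adjusted p = 0.0065). Of its wild-type polysome arrays 3, at 1021, 995 and 1011, lay within the unfractionated range. Kars, for lysine, had 560 to 911 (median 684) in polysome arrays and 717 to 1017 (median 839) in unfractionated arrays (-0.29 ± 0.10, adjusted p = 0.028). Aimp2 had 434 to 772 in polysome arrays and 553 to 786 in unfractionated arrays and was not called (-0.24 ± 0.10, adjusted p = 0.087). The complex list, with 10 of 11 genes on the table, thus held 8 lower genes and 1 higher gene, the scaffold-related Eef1e1 (0.44 ± 0.12, adjusted p = 0.0098).

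Among enzymes usually described outside the complex, Sars and Tars changed most. Sars, which charges serine, had 399 to 744 (median 472) in polysome arrays and 659 to 1092 (median 810) in unfractionated arrays, and fell by 0.71 ± 0.10 (SE, limma, adjusted p = 1.1e-04). Tars, for threonine, had 1170 to 2373 (median 1773) in polysome arrays and 2431 to 3432 (median 2725) in unfractionated arrays. The groups did not overlap, and the fall was 0.68 ± 0.09 (adjusted p = 7.9e-05). Its paralogue Tarsl2 had 102 to 197 in polysome arrays and 114 to 193 in unfractionated arrays (-0.06 ± 0.12, adjusted p = 0.76). Aimp1, Rars and Tars were the 3 genes of the family whose 8 polysome arrays all lay below the 8 unfractionated arrays, as did 2.69% of all genes.

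Cars, which charges cysteine, had 183 to 459 (median 266) in polysome arrays and 352 to 565 (median 430) in unfractionated arrays, and fell by 0.59 ± 0.12 (limma adjusted p = 0.0018). Wars, for tryptophan, had 62.9 to 133 (median 74.3) in polysome arrays and 83.1 to 152 (median 124) in unfractionated arrays, and fell by 0.48 ± 0.13 (adjusted p = 0.0083). Its next brightest probe sets gave -0.03 (mean signal 101.6) and -0.06 (72.4) and a dimmer one -0.38 (58.6). In Cars and Wars the 2 highest polysome arrays were those of wild-type livers without methionine. Farsa, the alpha subunit of phenylalanyl-tRNA synthetase, had 132 to 274 in polysome arrays and 192 to 338 in unfractionated arrays (-0.36 ± 0.12, adjusted p = 0.033). Its partner Farsb, the beta subunit, narrowly missed the threshold, with 774 to 1077 in polysome arrays and 899 to 1338 in unfractionated arrays (-0.27 ± 0.10, adjusted p = 0.054). Gars had 598 to 1055 in polysome arrays and 833 to 1104 in unfractionated arrays (-0.30 ± 0.09, adjusted p = 0.02). Kars and Gars each encode both the cytosolic and the mitochondrial form of their enzyme.

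The cytosolic genes that were not called were Farsb, Nars (-0.24), Aars (-0.22), Vars (-0.16) and Yars (0.05). They charge, after phenylalanine, the amino acids asparagine, alanine, valine and tyrosine. With same-numbered arrays of both fractions assumed to share a pool (random block), Farsb, Aimp2 and the mitochondrial Iars2 and Yars2 were also called lower. That made 22 genes of the family in all. Calls over all genes rose too, from 1615 lower and 1812 higher to 1925 lower and 2201 higher. Hars, for histidine, was the 1 cytosolic gene that rose: 701 to 1415 (median 960) in polysome arrays and 613 to 953 (median 735) in unfractionated arrays, with overlap, a log2 difference of 0.37 ± 0.11 (limma adjusted p = 0.021). By condition the Hars difference was 0.03 in knockout livers without methionine and 0.21 with it. In wild-type livers it was 0.64 without and 0.59 with methionine. A second probe set for Hars gave -0.11, so the rise rests on 1 probe set. Over the other cytosolic probe sets with a mean signal of at least 40, 13 of 14 had the sign of the chosen probe set of their gene.

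**Figure D2:**
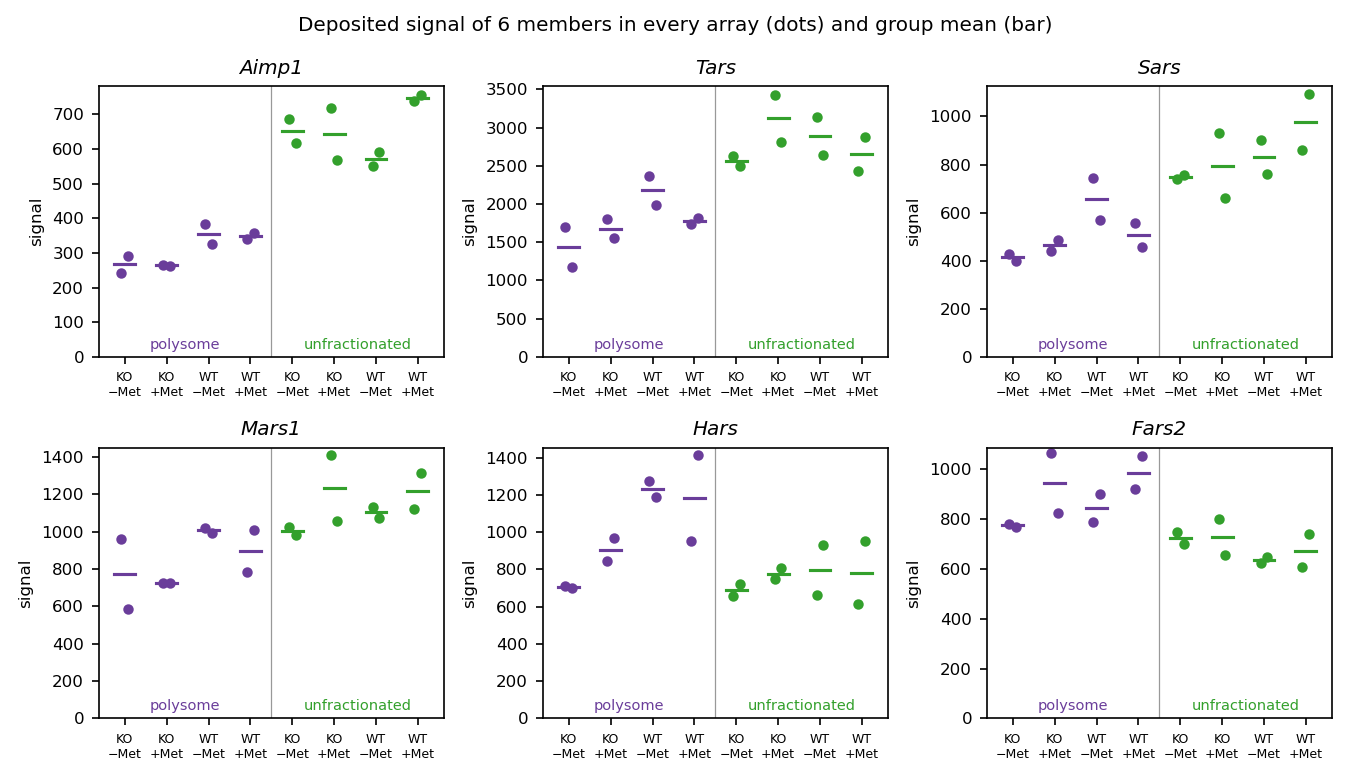
Deposited signal of 6 genes in each array (dots) with the mean of each group of 2 arrays (bars), polysome groups on the left and unfractionated groups on the right of each panel, axes from 0. Aimp1 and Tars show no overlap between fractions, Sars and Mars1 a narrow one, and Hars and Fars2 lie higher in polysome RNA.

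Among the 15 mitochondrial synthetases tested, 2 rose and 1 fell. In this comparison 31.4% of all genes were called, so that count does not set the class apart. Fars2, which charges mitochondrial phenylalanine tRNA, had 769 to 1065 (median 864) in polysome arrays and 607 to 801 (median 679) in unfractionated arrays. It rose by 0.35 ± 0.09 on the log2 scale (limma adjusted p = 0.0075), with the groups overlapping at their edges. Cars2, for cysteine, had 219 to 288 (median 246) in polysome arrays and 139 to 270 (median 193) in unfractionated arrays and rose by 0.33 ± 0.10 (adjusted p = 0.023). Hars2, for histidine, had 140 to 223 (median 160) in polysome arrays and 147 to 245 (median 215) in unfractionated arrays and fell by 0.27 ± 0.10 (adjusted p = 0.044). The largest mitochondrial differences belonged to the dim genes Lars2 (0.40 ± 0.22, adjusted p = 0.18) and Vars2 (0.39 ± 0.19, adjusted p = 0.13), and neither was called. Lars2 had 39.7 to 189 in polysome arrays and 16.7 to 133 in unfractionated arrays, and Vars2 had 50.3 to 144 in polysome arrays and 16.7 to 125 in unfractionated arrays. The other Lars2 probe sets, dimmer at mean signals of 39.3 and 32.6, gave the opposite sign (-0.27 and -0.41). The remaining 10 lay between -0.33 and 0.26. Of other mitochondrial probe sets with a mean signal of at least 40, 4 of 6 had the sign of the chosen one.

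The 12 cytosolic synthetases often listed as Atf4 targets held 9 genes that fell and 0 that rose (median -0.48), and the 7 others present held 4 that fell and 1 that rose (median -0.29); the difference between these lists was not tested. Elsewhere in translation, 4 of 5 cytosolic elongation factor genes fell and 1 rose, Eef1e1, which is also on the complex list and is counted there. Eef1b2, a nucleotide exchange factor subunit, fell by 1.84 ± 0.09 (limma adjusted p = 7.3e-10), and Eef2, the translocation factor, by 1.20 ± 0.11 (adjusted p = 9.4e-07). Of 12 genes for mitochondrial translation factors and tRNA charging, 2 fell and 1 rose. The 1 that rose, Mtfmt, formylates mitochondrial methionyl-tRNA (0.34 ± 0.11, adjusted p = 0.032), and Gfm1, a mitochondrial elongation factor, fell by 0.73 ± 0.10 (adjusted p = 7e-05). Of 27 Atf4 targets other than synthetases, 4 fell and 3 rose. These 3 of 12 and 7 of 27 genes called lie near the 31.4% of all genes called in this comparison, so neither count sets its list apart.

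Markers of other cells also moved between fractions. Of 10 Kupffer cell markers tested, 9 were lower in polysome RNA, with a summed signal of 909 to 1758 in polysome arrays and 1524 to 3129 in unfractionated arrays. Of 4 stellate cell markers 3 were lower (summed signal 464 to 927 in polysome arrays and 776 to 1580 in unfractionated arrays). Of 7 hepatocyte markers 3 were lower and 1 higher (69697 to 95210 in polysome arrays and 82436 to 99282 in unfractionated arrays). No marker was at 0, and their part in the synthetase result was not tested.

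Scaling by array medians instead gave 10 lower and 0 higher cytosolic genes and no mitochondrial call. Over all genes it gave 1271 lower and 1052 higher, against 1615 and 1812 as deposited. Hars, Cars2, Fars2, Farsa, Gars, Kars and Hars2 were then no longer called, and 11 of the family's 18 calls remained. With the mean over a gene's probe sets, Wars, Hars, Farsa and Hars2 were not called. In turn, Hars2 lost its call when any of 14 arrays was left out, Farsa with any of 11, Kars 8, Cars2 4, Hars 3 and Gars 2, and the other 12 kept theirs throughout.

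The lower share of cytosolic synthetase mRNAs in polysome RNA was present in each of the 4 conditions. The median log2 difference over the 19 genes was -0.36 in knockout livers without methionine, -0.64 in knockout livers with methionine, -0.13 in wild-type livers without methionine and -0.51 in wild-type livers with methionine. The mitochondrial medians were -0.06, -0.04, 0.18 and 0 in the same order. Lars, for example, differed by -0.16 in knockout livers without methionine, -1.12 in knockout livers with methionine, -0.37 in wild-type livers without methionine and -1.08 in wild-type livers with methionine. Cars lay near its unfractionated level in wild-type livers without methionine (-0.07) and further below it with methionine (-0.87). In all 4 conditions 13 of 19 cytosolic genes (68.4%) and 2 of 15 mitochondrial genes (13.3%) were below 0, as were 18.7% of all genes.

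**Figure D3:**
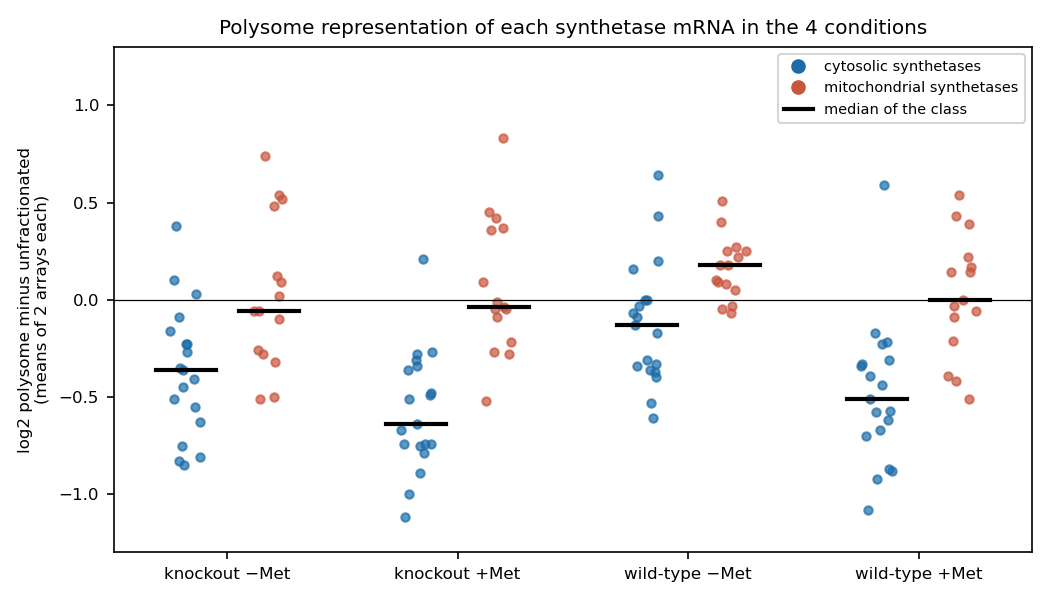
Log2 difference of polysome minus unfractionated RNA in each condition (differences of means of 2 arrays), a point per gene, with black bars for the class medians. Cytosolic medians are -0.36, -0.64, -0.13 and -0.51 from left to right, below the mitochondrial medians in every condition.

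Whether the polysome difference itself changed with methionine or genotype was tested by interaction terms, and no gene of the family or elsewhere was called (limma, 0 of 10916 for each, or 0%). At an unadjusted p under 0.05, 419 genes passed for methionine omission in knockout livers, 674 for omission in wild-type livers and 1019 for knockout against wild-type. The change in this difference, without minus with methionine, was positive in 15 of 19 cytosolic genes in knockout livers (median 0.18, against 0 over all genes) and in 18 of 19 in wild-type livers (median 0.31, against 0.04 over all genes). Among those positive in wild-type livers were Wars (0.83 ± 0.35, adjusted p = 0.78), Cars (0.80 ± 0.35, adjusted p = 0.78) and Yars (0.77 ± 0.36, adjusted p = 0.81). The median 95% interval for a gene extended 0.68 to either side, so differences of this size were not resolved with 2 arrays per group. When the conditions were taken apart, 5 genes of the family were called from the arrays without methionine alone and 13 from those with methionine alone. The knockout arrays alone gave 15 and the wild-type arrays alone 9. The share of all genes called in each of these parts is not given. The counts therefore do not show a dependence on medium or genotype.

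Loss of Gcn2 was followed in the 8 knockout against the 8 wild-type arrays, over both media and fractions. No synthetase gene was called, while 4.24% of all genes were. If both fractions came from the same pools, the 8 arrays of a genotype were not independent. With same-numbered arrays assumed to share a pool (random block), again no gene of the family was called. Calls over all genes then went from 224 higher and 239 lower to 146 and 166. Of 19 cytosolic genes 17 had negative log2 differences (median -0.16) and of 15 mitochondrial genes 11 did (median -0.21), against a median of 0 over all genes. At an unadjusted p under 0.05, 4 cytosolic and 7 mitochondrial genes were lower and none of the family higher, where 17.7% of all genes passed in either direction.

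The smallest adjusted p in the family belonged to Iars2, the mitochondrial isoleucyl-tRNA synthetase. Its signal was 66.3 to 211 (median 116) in knockout arrays and 104 to 292 (median 167) in wild-type arrays, with overlap (-0.47 ± 0.13, limma adjusted p = 0.061). Vars2, for valine, had 16.7 to 118 (median 82.8) in knockout arrays and 80.6 to 144 (median 119) in wild-type arrays (-0.55 ± 0.19, adjusted p = 0.12), and Lars2, for leucine, had 16.7 to 65.1 (median 46.1) in knockout arrays and 27.1 to 189 (median 56.3) in wild-type arrays (-0.52 ± 0.22, adjusted p = 0.21). The other Lars2 probe sets gave 0.05 and 0.10. In each of these genes the knockout arrays included the lowest value and the wild-type arrays the highest. Mars1 had 585 to 1410 (median 971) in knockout arrays and 786 to 1313 (median 1048) in wild-type arrays (-0.21 ± 0.11, adjusted p = 0.33). The 3 highest differences were those of Tarsl2 (0.22 ± 0.12, adjusted p = 0.37), Qars (0.12 ± 0.11, adjusted p = 0.63) and Pars2, the mitochondrial prolyl-tRNA synthetase (0.09 ± 0.17, adjusted p = 0.84). Tarsl2 had 116 to 197 (median 158) in knockout arrays and 102 to 155 (median 143) in wild-type arrays, Qars had 490 to 1122 (median 893) in knockout arrays and 510 to 1125 (median 719) in wild-type arrays, and Pars2 had 33.8 to 90.3 (median 52.4) in knockout arrays and 37.1 to 63.8 (median 50.2) in wild-type arrays.

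Other genes of the pathway did respond to genotype. Asns, asparagine synthetase and a classical Atf4 target, had signals of 39.2 to 92.4 (median 57.3) in knockout arrays and 378 to 1137 (median 712) in wild-type arrays, a log2 difference of -3.29 ± 0.14 (limma adjusted p = 4.5e-10). Of 27 Atf4 targets other than synthetases 4 fell (Asns, Atf5, Trib3 and Gpt2) and 1 rose (Chac1, 0.77 ± 0.13, adjusted p = 0.0019). Atf5, a related transcription factor, fell by 1.03 ± 0.14 (adjusted p = 3.6e-04) and Trib3, a pseudokinase, by 0.79 ± 0.16 (adjusted p = 0.012). Atf4 itself differed by 0.05 ± 0.09 (adjusted p = 0.82). Lymphocyte markers summed to 482 to 2489 in knockout arrays and 36 to 410 in wild-type arrays, with 1 of 6 bright enough to be tested and called higher. Kupffer cell markers summed to 909 to 2134 in knockout arrays and 1174 to 3129 in wild-type arrays, with 2 of 10 called lower. In such bulk RNA, fewer cells of a type and less RNA per cell cannot be told apart. None was at 0, and the part of these markers in the synthetase values was not tested.

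The 4 comparisons of knockout with wild-type within a medium and a fraction gave no called synthetase gene either. The background was 6.26% called in polysome RNA without methionine, 0.348% in polysome RNA with methionine, 0.394% in unfractionated RNA without methionine and 0.357% in unfractionated RNA with methionine. In polysome RNA without methionine the medians were -0.33 over cytosolic and -0.25 over mitochondrial genes, against -0.05 over all genes, and with arrays scaled by their medians -0.19 and -0.13, against 0.08. In unfractionated RNA without methionine they were -0.14 and -0.05, against 0.01, and with median scaling -0.25 and -0.15, against -0.08. The order of the class medians themselves thus depends on the scaling. Relative to the median over all genes, both classes lay lower in polysome than in unfractionated RNA under both scalings. In polysome RNA without methionine, 7 of 19 cytosolic and 4 of 15 mitochondrial genes were lower at an unadjusted p under 0.05 (limma). Of all genes 21.1% passed in either direction. In the same polysome comparison both knockout arrays lay below both wild-type arrays in 21 of 37 genes of the family and in 26.2% of all genes.

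Several genes lay close to the threshold in that comparison. Hars had 709 and 701 in knockout polysome arrays without methionine and 1274 and 1188 in wild-type ones (-0.79 ± 0.23, limma adjusted p = 0.051). Tars had 1704 and 1170 in knockout arrays and 2373 and 1984 in wild-type arrays (-0.61 ± 0.19, adjusted p = 0.067). Farsa had 178 and 132 in knockout arrays and 274 and 268 in wild-type arrays (-0.76 ± 0.24, adjusted p = 0.072). In each of these genes both knockout arrays were below both wild-type arrays. With same-numbered arrays of both fractions assumed to share a pool (random block), Hars was called (limma adjusted p = 0.04). Leaving out the first knockout pool left 1 knockout array in this comparison, the lower one for Cars, Mars1 and Tars. Their log2 differences were then -1.12, -0.77 and -0.88, each resting on that single array. In unfractionated RNA without methionine, Vars2 had 67.1 and 16.7 in knockout arrays and 125 and 115 in wild-type arrays (-1.38 ± 0.37, limma adjusted p = 0.2). Without the first knockout pool the estimate was -2.06, resting on the single dim knockout signal of 16.7.

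**Figure D4:**
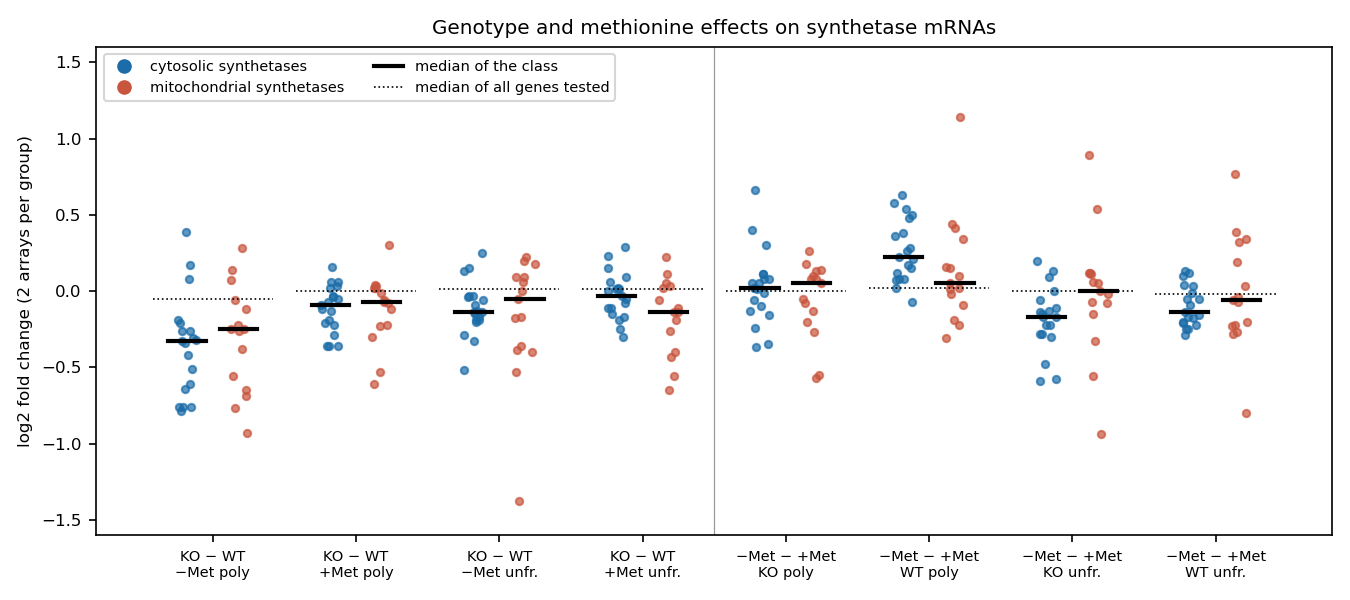
Log2 fold changes of the 19 cytosolic and 15 mitochondrial synthetases (points) in the 4 genotype comparisons (left) and the 4 methionine comparisons (right), 2 arrays per group, with solid bars for class medians and dotted lines for the median of all genes. Cytosolic medians range from -0.33 (knockout minus wild-type, polysome, without methionine) to 0.22 (wild-type polysome, without minus with methionine), and no point passed the adjusted threshold.

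Omission of methionine asks whether the synthetase mRNAs respond to lack of an amino acid. No gene of the family was called in any of the 4 comparisons. The background was 0.156% of genes in knockout polysome RNA, 2.57% in wild-type polysome RNA, 0% in knockout unfractionated RNA and 0.0641% in wild-type unfractionated RNA. In knockout unfractionated RNA 618 genes passed an unadjusted p under 0.05. The median 95% interval for a synthetase extended 0.48 on the log2 scale to either side of its estimate, with 0.36 for the narrowest and 0.92 for the widest, so smaller changes would not have been resolved.

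The cytosolic methionyl-tRNA synthetase gene Mars1, whose amino acid was withheld, was not called in any comparison. In knockout polysome RNA it had 958 and 586 without methionine and 724 and 726 with methionine (0.05 ± 0.21, limma adjusted p = 0.97). In wild-type polysome RNA it had 1021 and 995 without methionine and 786 and 1011 with methionine (0.17 ± 0.21, adjusted p = 0.73). The arrays of the 2 media overlapped in both genotypes. In unfractionated RNA it had 1024 and 984 without and 1410 and 1055 with methionine in knockout livers (-0.28 ± 0.21, adjusted p = 0.94). In wild-type livers it had 1131 and 1075 without and 1123 and 1313 with methionine (-0.14 ± 0.21, adjusted p = 0.95). Mars2 had 21.8 and 22.6 without and 12.1 and 20.2 with methionine in knockout polysome RNA, and 18.2 and 9.54 without and 10.5 and 22.1 with methionine in wild-type polysome RNA, with no test.

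In wild-type polysome RNA 18 of 19 cytosolic genes had higher estimates without methionine (median 0.22, against 0.05 over mitochondrial and 0.02 over all genes), but with arrays scaled by their medians 12 of 19 were negative (median -0.10, against -0.27 over all genes). Under the deposited scaling 13 cytosolic genes had both arrays without methionine above both arrays with it, as did 24.6% of all genes. The highest estimates in the family were those of Lars2, Cars and Wars. Lars2 had 76.5 and 189 without and 54.1 and 39.7 with methionine (1.14 ± 0.43, limma adjusted p = 0.19). Cars had 459 and 379 without and 274 and 254 with methionine (0.63 ± 0.25, adjusted p = 0.2). Wars had 133 and 123 without and 94.4 and 68.6 with methionine (0.58 ± 0.25, adjusted p = 0.26). The arrays of the 2 media did not overlap in these genes. The lowest estimates were those of Iars2 (-0.31 ± 0.27, adjusted p = 0.6), Fars2 (-0.22 ± 0.18, adjusted p = 0.58) and Wars2 (-0.19 ± 0.32, adjusted p = 0.81). Iars2 had 122 and 167 without and 204 and 160 with methionine, Fars2 had 789 and 902 without and 920 and 1052 with it, and Wars2 had 41.1 and 87.3 without and 64.7 and 79.4 with it.

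Of 27 Atf4 targets other than synthetases, 2 rose and 0 fell in the same wild-type polysome arrays, where 2.57% of all genes were called. Over all genes 159 were called higher and 122 lower, but 19 and 225 with median scaling. Calls of these targets and of the markers below are given for the deposited scaling only. The 2 that rose were Chac1, which degrades glutathione (1.09 ± 0.26, limma adjusted p = 0.035), and Slc3a2, the heavy chain of amino acid transporters (1.00 ± 0.21, adjusted p = 0.021). Asns differed by 0.40 ± 0.27 (adjusted p = 0.49), and Atf4 by 0.57 ± 0.17 (adjusted p = 0.094). Hepatocyte markers there summed to 88706 to 95210 without and 69697 to 76599 with methionine, with 1 of 7 called higher. Stellate cell markers summed to 753 to 927 without and 464 to 625 with methionine, with 1 of 4 called higher (smallest limma adjusted p = 0.041). Lymphocyte markers summed to 273 to 299 without and 41 to 104 with methionine, and the 1 bright enough to be tested was not called (adjusted p = 0.081). Endothelial markers summed to 470 to 474 without and 324 to 427 with methionine and cholangiocyte markers to 109 to 201 without and 67 to 95 with methionine, with none called. The part of these markers in the synthetase values was not tested.

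In knockout polysome RNA the cytosolic median was 0.02, with 11 of 19 estimates positive, and the mitochondrial median 0.05, against 0 over all genes. Lars had the highest estimate, with 744 and 348 without and 272 and 370 with methionine (0.66 ± 0.27, limma adjusted p = 0.48). The arrays overlapped, as 1 of 2 pools without methionine was high. Qars followed, with 644 and 930 without and 490 and 696 with methionine (0.40 ± 0.22, adjusted p = 0.64), then Nars, with 2428 and 1358 without and 1269 and 1697 with it (0.30 ± 0.23, adjusted p = 0.77). The lowest were Vars2, with 50.3 and 98.5 without and 118 and 108 with methionine (-0.57 ± 0.37, adjusted p = 0.72), and Iars2, with 89.4 and 66.3 without and 128 and 113 with it (-0.55 ± 0.27, adjusted p = 0.57). Farsa, with 178 and 132 without and 230 and 179 with methionine, came next (-0.37 ± 0.24, adjusted p = 0.71).

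In unfractionated RNA the cytosolic medians were slightly negative in both genotypes, -0.17 in knockout and -0.14 in wild-type livers, with mitochondrial medians of 0 and -0.06 and all-gene medians of 0 and -0.02 in the same order. In knockout livers the lowest estimates were those of Vars2, with 67.1 and 16.7 without and 62.3 and 111 with methionine (-0.94 ± 0.37, limma adjusted p = 0.82), Eprs, with 836 and 1010 without and 1201 and 1614 with it (-0.59 ± 0.22, adjusted p = 0.81), and Yars, with 109 and 238 without and 265 and 237 with it (-0.58 ± 0.25, adjusted p = 0.85). Eprs was the 1 of these whose media did not overlap. The highest were Lars2, with 39.4 and 64.4 without and 23.6 and 16.7 with methionine (0.89 ± 0.43, adjusted p = 0.88), and Hars2, with 229 and 236 without and 147 and 165 with it (0.54 ± 0.19, adjusted p = 0.79). Nars followed, with 2116 and 2163 without and 1762 and 1961 with methionine (0.20 ± 0.23, adjusted p = 0.98).

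In wild-type unfractionated RNA, Iars2 had the lowest estimate, with 104 and 168 without and 292 and 200 with methionine (-0.80 ± 0.27, limma adjusted p = 0.48). Aimp1 followed with 549 and 591 without and 738 and 756 with methionine (-0.38 ± 0.18, adjusted p = 0.73), then Yars with 206 and 198 without and 238 and 263 with it (-0.29 ± 0.25, adjusted p = 0.92). In these 3 genes both arrays without methionine were below both with it, a pattern that 20.2% of all genes showed. Lars2 was highest, with 46.5 and 133 without and 58.6 and 27.0 with methionine (0.77 ± 0.43, adjusted p = 0.83), with overlap. Vars2 had 125 and 115 without and 80.6 and 95.5 with methionine (0.39 ± 0.37, adjusted p = 0.93), and Aars2, for alanine, had 110 and 107 without and 62.9 and 107 with it (0.34 ± 0.38, adjusted p = 0.94).

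The difference between genotypes in the methionine effect was tested directly. No gene of the family was called in polysome RNA, where 0.0550% of all genes were, or in unfractionated RNA, where 0.0458% were (limma). Farsa had the smallest adjusted p in polysome RNA, with a negative estimate in knockout livers (-0.37) and a positive one in wild-type livers (0.54), a difference of -0.92 ± 0.34 (adjusted p = 0.39). Hars2 had the smallest in unfractionated RNA, with a positive estimate in knockout livers (0.54) and a negative one in wild-type livers (-0.22), a difference of 0.76 ± 0.27 (adjusted p = 0.76).

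**Figure D5:**
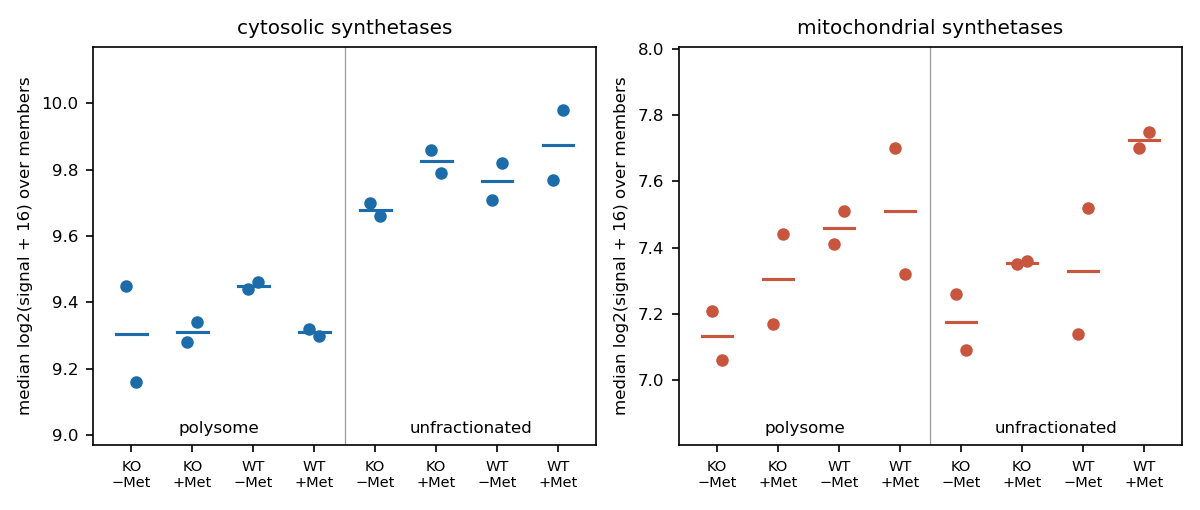
Median over class members of log2(signal + 16) in each array (points) with the mean of each group of 2 arrays (bars), cytosolic synthetases on the left and mitochondrial synthetases on the right; axes span the same log2 range but start at different levels. The 8 polysome arrays lie between 9.16 and 9.46 for the cytosolic class, below the 8 unfractionated arrays at 9.66 to 9.98, while the mitochondrial fractions overlap.

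The median of the cytosolic class per array summarises these comparisons. It was 9.16 to 9.46 in polysome arrays and 9.66 to 9.98 in unfractionated arrays, with an SD within groups of 0.097. For the mitochondrial class it was 7.06 to 7.70 in polysome arrays and 7.09 to 7.75 in unfractionated arrays, with an SD within groups of 0.162. Thus, with signals as deposited, the fraction separated all arrays by the cytosolic median, and neither genotype nor medium did. Scaling by array medians shifted single arrays by -0.29 to 0.31, and the separation of arrays was not examined under it.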

How the data were processed

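RNA, pooled from 2 livers for each array, was hybridised to 16 Affymetrix arrays after one-cycle labelling, per the labels' protocols. The authors deposited an intensity (linear signal) for 45101 probe sets per array, by an algorithm that the labels and headers used here do not name. Trimmed by 2% at both ends, each array's mean signal was 150.0, so the deposited values had been scaled. A second deposited table of scores and ratios was not used. Of the probe sets 34945 had 1 gene symbol, 932 several and 9160 none, and those with 1 were used; looking up 34741 of them by gene ID changed 0 symbols.

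Groups came from the titles and source names. From the signals as deposited, log2(signal + 16) of 1 probe set per gene was fitted with limma 3.58.1 in R 4.3.3 (8 group means, 8 residual degrees of freedom, trended eBayes, two-sided). The 40% of genes with the lowest mean, below a signal of about 22.8, were not tested, and p-values were adjusted over the other 10916 (Benjamini-Hochberg, threshold 0.05). The number of arrays limits the precision. The fit was tested on simulated data.

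The genes, the lists and the scaling were chosen with earlier results of these data known, including a description that divided arrays by their medians; those medians (18.3 to 27.7) lie among dim probe sets, so median scaling is an alternative here. The other alternatives were quantile normalization, pseudocounts of 1 and 64, a filter at 60%, the mean over a gene's probe sets, replicate blocks and leaving out arrays. Named in full are genes called in any comparison, the 3 highest and 3 lowest in the main comparisons, Mars1 and Mars2; other genes named within single genotype comparisons, by condition or for an interaction term were chosen after their values were seen. The labels do not say whether arrays of both fractions with the same replicate number came from the same livers. Their deviations from the group means correlated at 0.184 to 0.317 in the 4 conditions. Same-numbered arrays of different groups correlated at -0.0596 to 0.224 in unfractionated RNA and at -0.00942 to 0.0447 in polysome RNA. The ranges overlap for unfractionated RNA, so the pairs used for the pool block were assumed and not shown.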

Additional observations from a re-analysis of the deposited data

How the results depend on the processing

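Signals are compared with 2 pools per group, so changes under about 0.48 on the log2 scale between 2 groups (0.24 between sets of 8 arrays) were within the median 95% interval; Mars2 and other dim genes lay near background. Under the alternatives run, no call in the family changed direction.

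The number of genes of the family called lower or higher in polysome RNA was 18, and 11 with median scaling, 5 from the arrays without and 13 from those with methionine alone, 15 from the knockout and 9 from the wild-type arrays alone, and 15 to 19 when single arrays were left out. With the replicate number as a block it was 20, and 22 with a random block for the assumed pool. Over all genes, calls went from 1812 higher and 1615 lower to 1052 and 1271 with median scaling. They went to 1951 and 1725 with the number block and to 2201 and 1925 with the pool block. The contrasts within a medium, genotype or fraction were chosen after seeing the data. The share of all genes called is not given for them. For knockout minus wild-type over all arrays the count was 0, 1 with quantile normalization (Iars2) and 0 to 1 when single arrays were left out; in unfractionated RNA without methionine it was 0 to 1 when single arrays were left out. For polysome RNA without methionine the count was 0, and 2 with quantile normalization, 1 with a pseudocount of 64, 2 with the dimmest 60% left out, 2 with the mean of probe sets, 1 with the pool as a block, 2 with the replicate number as a block and 0 to 3 when single arrays were left out. Over all genes, calls in that comparison went from 415 higher and 268 lower to 476 and 329 with quantile normalization. They were 419 and 270 with a pseudocount of 64 and 441 and 309 with the mean of probe sets. The pool block gave 441 and 301 and the number block 534 and 391. With the dimmest 60% left out they were 476 and 345 of 7277 genes. With 6.26% of all genes called as deposited, counts of 1 or 2 do not set the family apart. The other counts of 0, for methionine and for the interaction terms, were 0 under every alternative that gave a value, the replicate blocks included.

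The cytosolic median for polysome minus unfractionated RNA was -0.43, and -0.32 with the mean of probe sets, -0.54 without both arrays of wild-type polysome RNA without methionine, -0.59 with methionine alone, -0.27 without methionine alone, -0.54 in knockout and -0.28 in wild-type arrays alone. For knockout minus wild-type it was -0.27 in polysome arrays alone and -0.08 without both arrays of wild-type polysome RNA without methionine (15 of 19 genes negative); the mitochondrial median was -0.10 with the mean of probe sets. For methionine omission in wild-type unfractionated RNA it was -0.26 with median scaling and -0.25 to -0.03 when single arrays were left out. In knockout unfractionated RNA it ran from -0.31 to -0.10 when single arrays were left out, and in knockout polysome RNA from -0.22 to 0.14. In wild-type polysome RNA median scaling gave -0.10 (mitochondrial -0.25). Median scaling also moved the share of calls that were higher to 7.79% (56.6% as deposited) there, to 33.1% (48.4%) for knockout minus wild-type and to 88.7% (60.8%) for that comparison in polysome RNA without methionine. It shifted single arrays by -0.29 to 0.31.

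For the 55 results on single genes, each pair of a result and an alternative was counted once. Under alternatives other than leaving out single arrays, 666 pairs stayed the same, 46 lost a call and 1 gained one. When an array was left out, 834 pairs stayed the same, 42 lost a call and 4 gained one. A fit on the compared groups alone gives the same value where all groups are compared and was not run there; leaving out both wild-type polysome arrays without methionine gave no value where they are needed.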
